A study of Camellia reticulata with 27 samples.

Results

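Basic leucine zipper (bZIP) factors were followed here as 4 transcripts, Cluster-73402.0, Cluster-73402.1, Cluster-89052.1 and Cluster-84038.13, of 225938 in the deposited table. They are the transcripts that the study's supplementary correlation list of transcription factors assigns to the bZIP family, and the pair under the number Cluster-73402 also carries there the function name sucrose induced translational repression. That list was drawn up on the same libraries, from correlations of transcription factors with anthocyanin enzymes and with transcripts of selected functions, so a likeness between a bZIP transcript and an enzyme over these groups is not independent evidence. RNA sequencing was done on petals of 3 *Camellia reticulata* cultivars, with 27 libraries in 9 groups of 3. 'Damanao' (MN, spelled Manao in the labels), a bud variant of 'Shizitou' (SZT) whose flowers are mixed white and red, was sampled at bud stage 1 (early), bud stage 3 (late) and initial flowering, and its white and red regions were collected apart at full bloom. The red-flowered SZT and the white-flowered 'Tongzimian' (TZM), both control cultivars, were sampled at full bloom and in bud. The plants received no treatment that the labels name. The sources name no marker transcript of petals, so the tissue label could not be checked against one, and they name no batch.

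A bZIP factor binds DNA as a dimer, through a basic region that touches the DNA and a leucine zipper that joins the partners, and many prefer sites with an ACGT core. In Arabidopsis the S1 group, to which bZIP11 belongs, is controlled by sucrose at translation. A short upstream reading frame in the mRNA leader encodes a peptide that stalls ribosomes when sucrose is high, so that less of the factor is made from the same amount of mRNA. Another Arabidopsis bZIP, HY5, acts downstream of light and activates flavonoid genes including chalcone synthase (CHS). Sugars and light both promote anthocyanin colour in many petals. The sources used here do not say which Arabidopsis bZIP any of the 4 transcripts is nearest to. The values below are transcript levels and carry no measure of translation or of sucrose.

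The values are FPKM, fragments per kilobase of transcript scaled to the mapped fragments of the library, a scale that allows levels of different transcripts to be set side by side. Summed over a library, the table held between 1117467 and 1320744 FPKM, and 126900 to 148030 transcripts per library lay above 0. The paper gives its clean reads as a total and as an average per sample, but not for each library. The counting precision behind a low FPKM value was therefore not worked out, and a value listed at 0 may be a failed estimate. Within groups, libraries correlated at r between 0.809 and 0.896 over the tested transcripts. For 4 libraries the most similar library lay outside their own group, and all of these came from the white or red region of MN, with the most similar library in the other region. They formed mutual pairs, white replicate 1 with red replicate 2 (r = 0.884) and white replicate 3 with red replicate 1 (r = 0.888). The labels do not say whether these libraries share a flower or plant. All 4 bZIP transcripts passed the filter, a mean of at least 5 FPKM in at least 1 group, as did 55099 transcripts in all. Differences are on the log2(FPKM + 1) scale, on which the change of low transcripts is understated, and were tested two-sided with limma on all libraries. A transcript was called changed at a Benjamini-Hochberg adjusted p under 0.05 within a comparison. Nothing in the labels says that the libraries of a group came from separate plants, so the p-values measure only the spread between these samples. In whole petals, fewer cells of a type and less RNA per cell cannot be told apart.

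Each of the 4 transcripts varied among the 9 groups (limma F test, adjusted p = 2.92e-08 for Cluster-73402.0, 4.13e-06 for Cluster-73402.1, 9.68e-09 for Cluster-89052.1 and 3.78e-07 for Cluster-84038.13), as did 81.1% of all tested transcripts. The ratio of the highest to the lowest group mean in FPKM was 13.4 for Cluster-73402.0, 12.4 for Cluster-73402.1 and 13.0 for Cluster-84038.13. Every one of them had its lowest mean in TZM at full bloom. The highest mean was in TZM buds for Cluster-73402.0 and Cluster-89052.1, in SZT buds for Cluster-73402.1 and in MN at bud stage 1 for Cluster-84038.13.

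**Figure D1:**
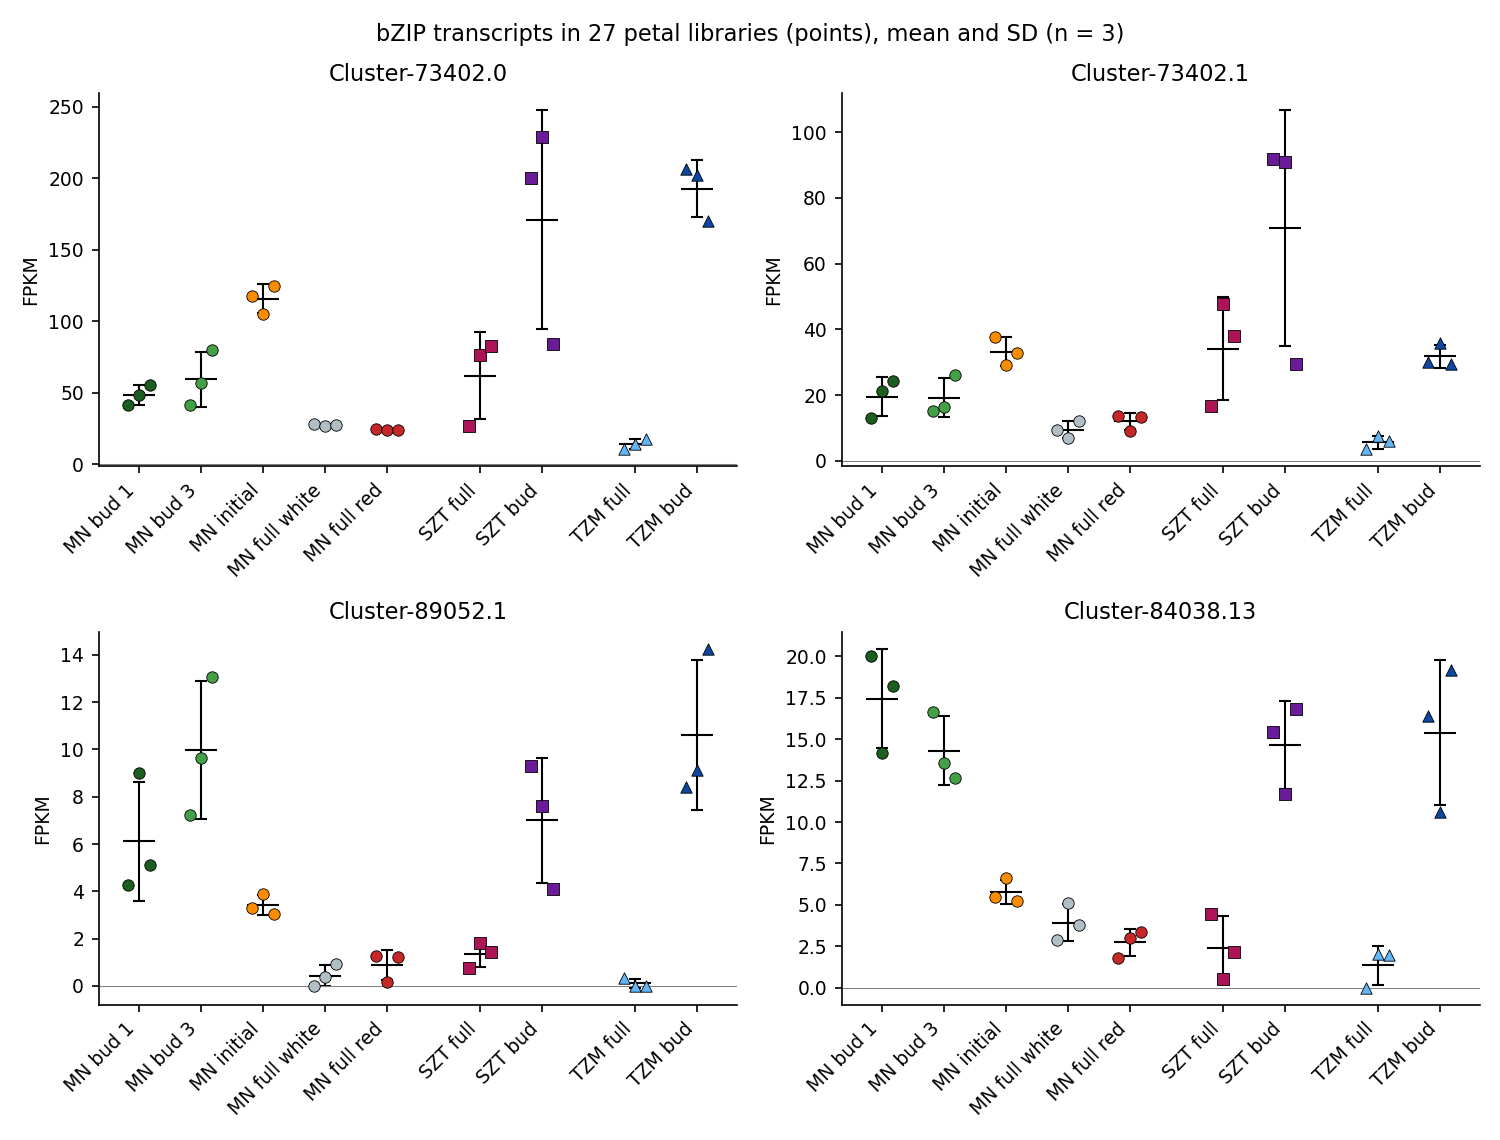
FPKM of the 4 bZIP transcripts in every library, by group, with points for libraries and bars for the group mean and SD (n = 3). The pair under Cluster-73402 peaked at initial flowering within MN, at 116 and 33.2 FPKM on average, whereas the other transcripts were highest in buds. All 4 had their lowest mean in TZM at full bloom, where only Cluster-73402.0 lay apart from the next group.

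Cluster-73402.0, the more abundant of the pair named for sucrose-induced translational repression, was the highest of the 4 transcripts in every group. In MN it had 41.62, 48.71 and 55.60 FPKM at bud stage 1, 41.86, 56.74 and 80.19 FPKM at bud stage 3, and 118.05, 104.94 and 124.63 FPKM at initial flowering. At full bloom it had 28.55, 26.64 and 27.74 FPKM in the white region of MN and 24.49, 24.09 and 23.79 FPKM in the red region. The initial flowering libraries thus stood above every bud and full-bloom library of MN, and both regions at full bloom lay below every earlier library.

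In SZT, Cluster-73402.0 had 27.17, 76.57 and 82.87 FPKM at full bloom, against 199.96, 228.97 and 84.47 FPKM in bud. In TZM it had 10.65, 14.54 and 18.02 FPKM at full bloom, against 206.35, 202.05 and 170.36 FPKM in bud. The stages did not overlap in either cultivar, but in SZT replicate 3 of the bud lay just above the 2 highest full-bloom libraries, and replicate 1 at full bloom lay far below the other two. Ordered by mean, the groups ran TZM bud (193 ± 19.7), SZT bud (171 ± 76.4), MN initial flowering (116 ± 10.02), SZT full bloom (62.2 ± 30.5), MN bud stage 3 (59.6 ± 19.3), MN bud stage 1 (48.6 ± 6.99), MN white (27.6 ± 0.959), MN red (24.1 ± 0.351) and TZM full bloom (14.4 ± 3.69 FPKM, SD, n = 3 each). Neighbours in this order overlapped in their libraries for 4 of the 8 pairs, namely from TZM bud down to MN initial flowering and from SZT full bloom down to MN bud stage 1.

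Cluster-73402.1, the other transcript with that function name, followed a like course at a lower level. In MN it had 13.03, 21.16 and 24.41 FPKM at bud stage 1, 15.2, 16.42 and 26.08 FPKM at bud stage 3, and 37.77, 29.04 and 32.89 FPKM at initial flowering. At full bloom it had 9.42, 6.84 and 12.1 FPKM in the white region and 13.65, 9.1 and 13.36 FPKM in the red region. The initial flowering libraries again lay above all others of MN, and the white and red regions overlapped.

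In SZT, Cluster-73402.1 had 16.82, 47.65 and 38.06 FPKM at full bloom, against 91.88, 91.06 and 29.39 FPKM in bud. In TZM it had 3.53, 7.42 and 6.18 FPKM at full bloom, against 29.95, 35.94 and 29.42 FPKM in bud. The SZT stages overlapped and the TZM stages did not. The same SZT libraries stood low for both transcripts of the pair, replicate 3 in bud and replicate 1 at full bloom, although over all tested transcripts each was most similar to a library of its own group. Of the 8 neighbouring pairs of groups in order of mean, 6 overlapped in their libraries.

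Cluster-89052.1, a bZIP transcript without a further function name, had the lowest mean of the bZIP transcripts in every group and was highest in bud. In MN it had 4.25, 8.99 and 5.1 FPKM at bud stage 1, 7.22, 9.63 and 13.05 FPKM at bud stage 3, and 3.3, 3.87 and 3.05 FPKM at initial flowering. At full bloom it had 0, 0.39 and 0.91 FPKM in the white region and 1.27, 0.17 and 1.22 FPKM in the red region. At initial flowering, where the pair under Cluster-73402 peaked within MN, Cluster-89052.1 already lay below every bud library.

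In SZT, Cluster-89052.1 had 0.76, 1.81 and 1.42 FPKM at full bloom, against 9.31, 7.6 and 4.11 FPKM in bud. In TZM it had 0.32, 0 and 0 FPKM at full bloom, against 8.42, 9.15 and 14.25 FPKM in bud. Stages did not overlap in either cultivar. The full-bloom groups, including both regions of MN, reached at most 1.81 FPKM and overlapped from each to the next in order of mean, as did the 4 bud groups.

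Cluster-84038.13 was also a bud transcript. In MN it had 20, 14.15 and 18.21 FPKM at bud stage 1, 16.66, 13.57 and 12.68 FPKM at bud stage 3, and 5.5, 6.63 and 5.25 FPKM at initial flowering. At full bloom it had 2.89, 5.12 and 3.76 FPKM in the white region and 1.81, 3 and 3.38 FPKM in the red region. The 4 bud groups of the 3 cultivars overlapped in turn, with means between 14.3 ± 2.09 FPKM in MN at bud stage 3 and 17.45 ± 2.998 FPKM in MN at bud stage 1 (SD, n = 3 each).

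In SZT, Cluster-84038.13 had 4.44, 0.53 and 2.18 FPKM at full bloom, against 15.45, 11.68 and 16.84 FPKM in bud. In TZM it had 0, 2.04 and 1.99 FPKM at full bloom, against 16.42, 10.59 and 19.17 FPKM in bud. Initial flowering of MN lay apart from the bud groups above it and the full-bloom groups below it, and the full-bloom groups overlapped.

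The first question was how the bZIP transcripts changed as the MN flower opened. Between late and early bud (bud stage 3 minus bud stage 1), 0 of the 4 were called, and 0 had an unadjusted p under 0.05 in limma, against 3.97% of all tested transcripts called. Part of the anthocyanin enzyme transcripts moved at this step: 7 of the 20 listed transcripts of CHS, flavanone 3-hydroxylase (F3H), dihydroflavonol reductase (DFR), anthocyanidin synthase (ANS) and anthocyanidin reductase (ANR) were called, and all 7 rose. They were 2 of 6 for CHS, 2 of 6 for F3H and 3 of 3 for DFR, with 0 of 3 for ANS and 0 of 2 for ANR. CHS opens the flavonoid pathway, F3H, DFR and ANS lead on to anthocyanidins, and ANR turns anthocyanidins into epicatechin-type flavanols.

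At initial flowering against bud stage 3, 3 of the 4 bZIP transcripts were called, 1 higher and 2 lower, where 36.8% of all tested transcripts were called, 16.0% higher and 20.8% lower. Cluster-73402.0 rose by 0.99 (SE 0.35, adjusted p = 0.0296, limma), while Cluster-73402.1 differed by 0.79 (SE 0.39) and did not pass (adjusted p = 0.129). Cluster-89052.1 fell by 1.29 (SE 0.34, adjusted p = 0.00473) and Cluster-84038.13 fell by 1.17 (SE 0.40, adjusted p = 0.0249). So Cluster-73402.0 and the other two called transcripts moved in opposite directions, with the libraries of the 2 stages apart for all 4 transcripts. In the same comparison 16 of the 20 enzyme transcripts fell and 0 rose, with a median log2 difference of -2.85 over the list and -0.01 over all tested transcripts.

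Some calls at this step turned on single libraries. Cluster-73402.0 was lost without replicate 1 or 2 of bud stage 3 or replicate 1 or 3 of initial flowering (log2 difference 0.77 to 0.98, adjusted p 0.0679 to 0.133) and with no filter on low values (adjusted p = 0.0601). Cluster-84038.13 was lost without any of the same 4 libraries (adjusted p 0.0503 to 0.0773), with no filter (0.0521), with median-ratio scaling (0.0550) and with a pseudocount of 0.01 (0.479), and Cluster-89052.1 with that pseudocount (0.432).

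At full bloom against initial flowering the pair fell in both regions of MN. In the white region against initial flowering, 3 of the 4 transcripts fell, where 20.5% of all tested transcripts fell. The log2 differences were -2.03 (SE 0.35, adjusted p = 0.000122) for Cluster-73402.0, -1.74 (SE 0.39, adjusted p = 0.00175) for Cluster-73402.1 and -1.67 (SE 0.34, adjusted p = 0.00065) for Cluster-89052.1. Cluster-84038.13 differed by -0.48 (SE 0.40, adjusted p = 0.405), having been lower already at initial flowering.

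In the red region against initial flowering the same 3 transcripts fell, where 19.1% of all tested transcripts fell. The log2 differences were -2.21 (SE 0.35, adjusted p = 5.2e-05) for Cluster-73402.0, -1.41 (SE 0.39, adjusted p = 0.00946) for Cluster-73402.1 and -1.28 (SE 0.34, adjusted p = 0.00619) for Cluster-89052.1, and -0.88 (SE 0.40, adjusted p = 0.103) for Cluster-84038.13. Without replicate 2 of the red region, Cluster-89052.1 did not pass (log2 difference -0.97, adjusted p = 0.0509), nor did it with a pseudocount of 0.01 (0.207). The median over all tested transcripts was itself below 0 here, at -0.18 for the white and -0.16 for the red region, and median-ratio scaling took it to 0 without changing a bZIP call. Of the 20 enzyme transcripts, 11 fell and 1 rose in the white region, and 11 fell and 2 rose in the red region.

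The white and red regions at full bloom, which differ in colour within a flower, were the next comparison. In limma 0 of the 4 bZIP transcripts were called in the white region against the red, and 0 had an unadjusted p under 0.05, where 0.171% of all tested transcripts were called. The log2 difference of Cluster-73402.0 was 0.19 (95% interval -0.54 to 0.91) and that of Cluster-73402.1 was -0.33 (-1.15 to 0.49). For Cluster-89052.1 it was -0.38 (-1.09 to 0.32) and for Cluster-84038.13 it was 0.40 (-0.43 to 1.23). The intervals reach as far as -1.15 and 1.23, so the regions are not shown to be alike. The fit took white and red libraries as unpaired, although 4 of them formed mutual pairs of most similar libraries across the regions. For Cluster-73402.0 the libraries did not overlap, with 26.64 to 28.55 FPKM in the white region and 23.79 to 24.49 FPKM in the red region. Of the 6 CHS transcripts, 3 fell in the white region against the red, and 0 of the other 14 enzyme transcripts were called.

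In both control cultivars the question was how full bloom differed from bud. In SZT all 4 bZIP transcripts fell at full bloom against bud, where 30.8% of all tested transcripts fell. The log2 differences were -1.48 (SE 0.35, adjusted p = 0.0013) for Cluster-73402.0, -0.98 (SE 0.39, adjusted p = 0.0445) for Cluster-73402.1, -1.75 (SE 0.34, adjusted p = 0.000196) for Cluster-89052.1 and -2.38 (SE 0.40, adjusted p = 3.8e-05) for Cluster-84038.13. The median over all tested transcripts was -0.23, and 18 of the 20 enzyme transcripts fell. The members come from a list of correlations made on these libraries, partly with these enzymes. The counts of falling members in SZT and in TZM are therefore a description, not a test against all transcripts.

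The SZT values of the pair spread widely between libraries. Bud replicate 3 was also the lowest SZT bud library for Cluster-89052.1 and for summed CHS, F3H, DFR and ANS. Summed CHS was 3906 FPKM there, against 8275 and 9482 FPKM in the other bud libraries. For Cluster-84038.13 bud replicate 3 was the highest. Cluster-73402.1 did not pass without SZT bud replicate 1 or 2 or full-bloom replicate 1 (log2 difference -0.72 to -0.55, adjusted p 0.187 to 0.282), with median-ratio scaling (-0.53, adjusted p = 0.312), with no filter (0.0779) or with a pseudocount of 0.01 (0.0571). On the 6 SZT libraries alone neither Cluster-73402.0 (adjusted p = 0.115) nor Cluster-73402.1 (0.271) passed, and Cluster-89052.1 did not with the small pseudocount (0.148).

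In TZM all 4 fell as well, where 23.6% of all tested transcripts fell at full bloom against bud. The log2 differences were -3.68 (SE 0.35, adjusted p = 3.8e-08) for Cluster-73402.0, -2.33 (SE 0.39, adjusted p = 6.5e-05) for Cluster-73402.1, -3.37 (SE 0.34, adjusted p = 8.7e-08) for Cluster-89052.1 and -2.94 (SE 0.40, adjusted p = 4.5e-06) for Cluster-84038.13. These calls were kept under every alternative run on the transcripts themselves. Of the enzyme transcripts 15 fell, and 2, both ANR, rose.

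Whether the stage difference itself differed between cultivars was tested as an interaction, TZM full bloom minus bud less SZT full bloom minus bud. Of the 4 transcripts 2 were called, where 36.4% of all tested transcripts were called. The difference of differences was -2.20 (SE 0.49, adjusted p = 0.00152) for Cluster-73402.0 and -1.62 (SE 0.48, adjusted p = 0.0115) for Cluster-89052.1. For Cluster-73402.1 it was -1.35 (SE 0.56, adjusted p = 0.0646) and for Cluster-84038.13 -0.56 (SE 0.56, adjusted p = 0.475). With any 1 of the 12 libraries left out, the interaction of Cluster-73402.0 stayed between -2.71 and -1.76. Cluster-73402.1 passed without SZT bud replicate 1 (-1.62, adjusted p = 0.0377), SZT bud replicate 2 (-1.61, 0.0350) or SZT full-bloom replicate 1 (-1.78, 0.0129), and with median-ratio scaling (0.0461). The like interaction of the MN red region and bud stage 3 against SZT called 0 of the 4 in limma, with 0 at an unadjusted p under 0.05 and 10.9% of all tested transcripts called.

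**Figure D2:**
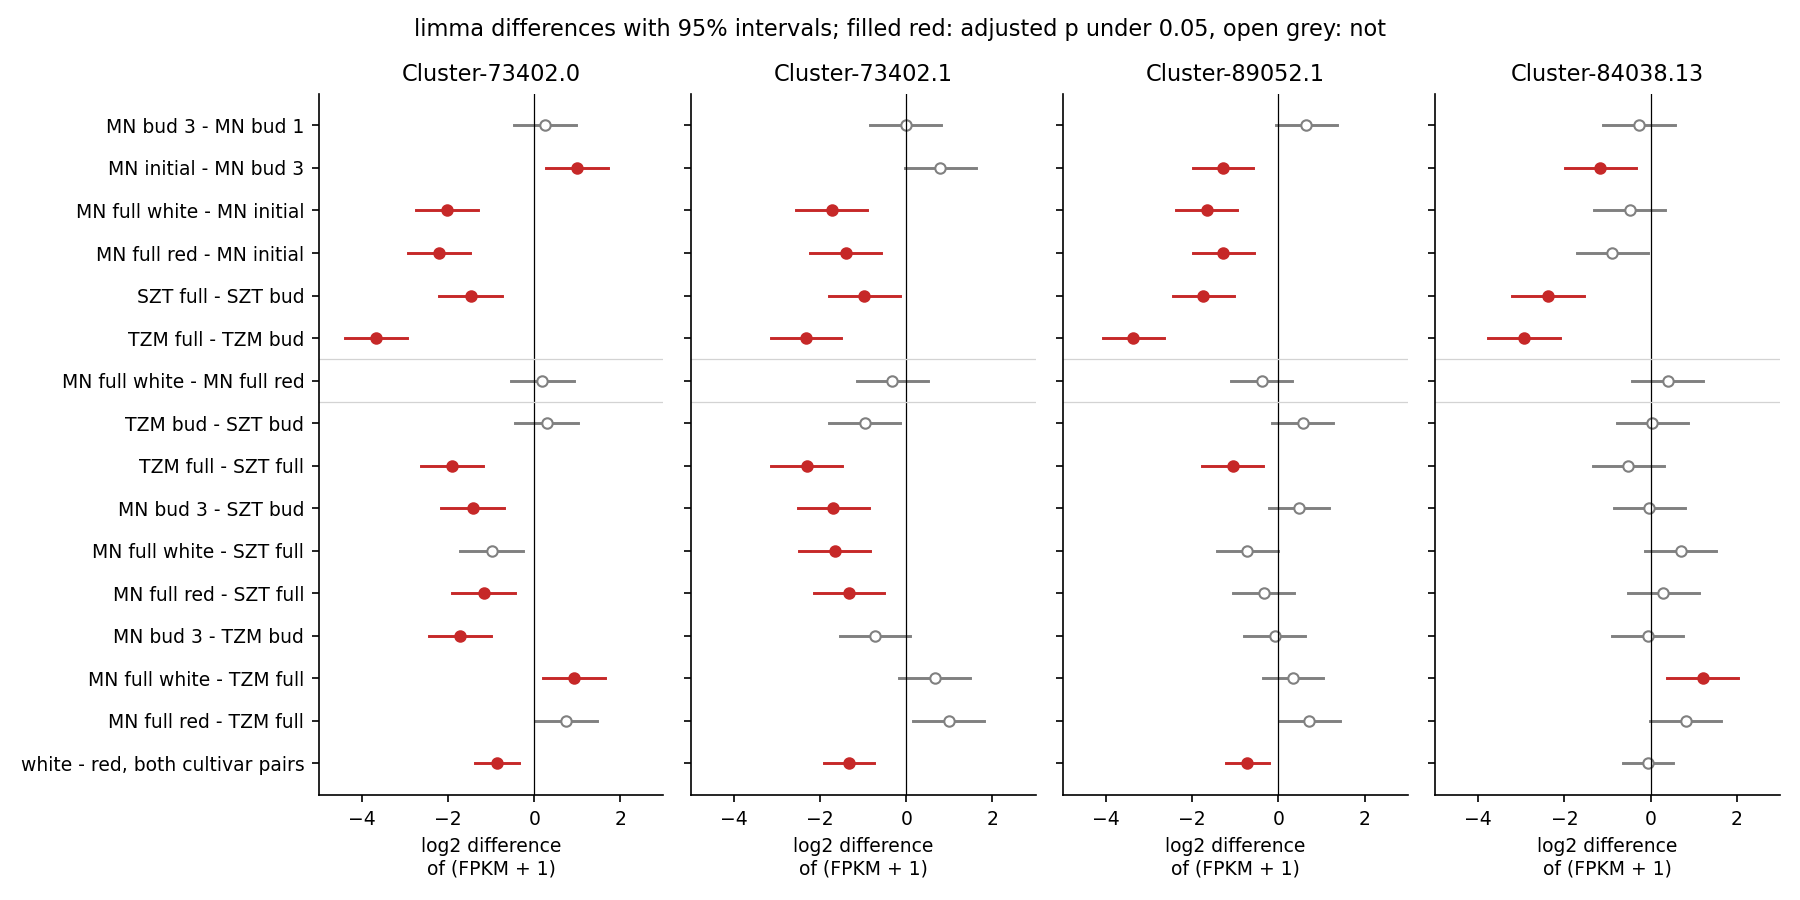
Log2 differences of the 4 bZIP transcripts between stages, regions and cultivars, each point a limma estimate on log2(FPKM + 1) with its 95% interval, filled where the adjusted p is under 0.05. At full bloom against bud all 4 lie below 0 in SZT and in TZM, and for the white against the red region of MN all intervals cross 0.

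Cultivars were then compared within a stage, to set the mixed-colour MN and the white TZM beside the red SZT. The labels of SZT and TZM name a bud stage without early or late, and the paper describes that stage as long. Cultivar and bud age cannot be told apart in the bud comparisons or in the interactions above. In TZM buds against SZT buds limma called 0 of the 4, and 1 of them had an unadjusted p under 0.05, with 36.4% of all tested transcripts called. That transcript was Cluster-73402.1, with 29.42 to 35.94 FPKM in TZM buds and 29.39 to 91.88 FPKM in SZT buds (log2 difference -0.97, SE 0.39, adjusted p = 0.0613). Without SZT bud replicate 3 the difference was -1.50 and passed (adjusted p = 0.00312). Cluster-73402.0 overlapped between these buds, at 170.36 to 206.35 FPKM in TZM and 84.47 to 228.97 FPKM in SZT.

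At full bloom 3 of the 4 were lower in TZM than in SZT, where 20.8% of all tested transcripts were lower. The log2 differences were -1.91 (SE 0.35, adjusted p = 0.000154) for Cluster-73402.0, -2.32 (SE 0.39, adjusted p = 7.4e-05) for Cluster-73402.1 and -1.06 (SE 0.34, adjusted p = 0.0157) for Cluster-89052.1. The libraries did not overlap for these 3. Cluster-84038.13 differed by -0.51 (SE 0.40, adjusted p = 0.332), and passed only without SZT full-bloom replicate 2 (-0.99, adjusted p = 0.0490). Cluster-89052.1 did not pass without SZT full-bloom replicate 2 or TZM full-bloom replicate 2 or 3 (adjusted p 0.0509 to 0.0684), and 2 of its 3 TZM libraries were listed at 0.

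Late buds of MN had less of the pair than SZT buds, whose age within the bud stage is not given. Of the 4 transcripts 2 were called lower, where 1.9% of all tested transcripts were lower in MN. Cluster-73402.0 differed by -1.43 (SE 0.35, adjusted p = 0.0243) and Cluster-73402.1 by -1.70 (SE 0.39, adjusted p = 0.0188), and the libraries did not overlap for either. Both calls were lost without MN bud stage 3 replicate 1 or 2 or SZT bud replicate 1 or 2 (adjusted p 0.0603 to 0.101), and on the 6 libraries alone (0.373 and 0.350). Against TZM buds, 1 of the 4 was lower in MN at bud stage 3, where 18.7% of all tested transcripts were lower. It was Cluster-73402.0 (log2 difference -1.72, SE 0.35, adjusted p = 0.00043), while Cluster-73402.1 differed by -0.73 (SE 0.39, adjusted p = 0.152).

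At full bloom transcripts of the pair were lower in MN than in SZT, on calls that depended on which libraries entered. In the white region against SZT 1 of the 4 was lower, where 8.35% of all tested transcripts were lower. It was Cluster-73402.1, at 6.84 to 12.1 FPKM in the white region and 16.82 to 47.65 FPKM in SZT (log2 difference -1.66, SE 0.39, adjusted p = 0.0061, and 0.114 on the 6 libraries alone). Cluster-73402.0 differed by -0.99 (SE 0.35, adjusted p = 0.0622), and without SZT full-bloom replicate 1 by -1.49 (adjusted p = 0.00227).

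In the red region against SZT both transcripts of the pair were called lower, 2 of the 4 where 7.41% of all tested transcripts were. Cluster-73402.0 differed by -1.18 (SE 0.35, adjusted p = 0.0274) and Cluster-73402.1 by -1.33 (SE 0.39, adjusted p = 0.0276). Cluster-73402.0 was lost without any 1 library other than SZT full-bloom replicate 1 (adjusted p 0.0607 to 0.155), and Cluster-73402.1 without red region replicate 2 or 3 or SZT replicate 2 or 3 (0.0502 to 0.139). On the 6 libraries alone neither passed (0.229 and 0.165).

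Against TZM at full bloom, the white region of MN had 2 of the 4 transcripts higher, where 16.0% of all tested transcripts were higher. Cluster-73402.0 differed by 0.92 (SE 0.35, adjusted p = 0.0458) and Cluster-84038.13 by 1.21 (SE 0.40, adjusted p = 0.0219). The first was lost without any 1 library other than TZM full-bloom replicate 3 (adjusted p 0.0853 to 0.161) and with no filter (0.0836). Cluster-84038.13 was lost without white region replicate 2 (0.0911), without TZM full-bloom replicate 1, which was listed at 0 (0.168), and on the 6 libraries alone (0.176). In the red region against TZM limma called 0 of the 4, with 3 at an unadjusted p under 0.05 and 31.2% of all tested transcripts called. Cluster-89052.1 passed there without red region replicate 2 (log2 difference 1.03, adjusted p = 0.0332) and with a pseudocount of 0.01 (0.0157).

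With the white groups (TZM and the white region of MN) set against the red groups (SZT and the red region of MN) at full bloom, 3 of the 4 transcripts were lower in white petals, where 13.8% of all tested transcripts were lower. The log2 differences were -0.86 (SE 0.25, adjusted p = 0.0128) for Cluster-73402.0, -1.32 (SE 0.28, adjusted p = 0.00132) for Cluster-73402.1 and -0.72 (SE 0.24, adjusted p = 0.0298) for Cluster-89052.1. Over these 12 libraries the white and red groups overlapped for every one of the 4 transcripts. Within MN alone none of the 3 was called, as given above. There the difference of Cluster-73402.0 had the other sign (0.19, higher in white, libraries apart). Those of Cluster-73402.1 (-0.33) and Cluster-89052.1 (-0.38) had the same sign. For TZM against SZT, Cluster-73402.0 differed by -1.91. Cultivar and colour cannot be told apart in the contribution of TZM and SZT. Cluster-89052.1 was lost without 7 of the 12 libraries, left out singly (replicate 1 of the white region, replicates 1 and 3 of the red region, and replicates 2 and 3 of SZT and of TZM, adjusted p 0.0588 to 0.0874), and on the 12 libraries alone (0.05001). Over all 18 comparisons 33 of the 72 tests of bZIP transcripts were called, where 26.8% of the tests over all tested transcripts were. At the stricter rule of an adjusted p of at most 0.001 and a log2 difference of at least 1, 12 were called, 4 of them at full bloom against bud in TZM, where 10.5% of all tests were. The comparisons share libraries and the members were chosen from a list made on them, so these counts are a description.

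The pair under Cluster-73402 was described further because its members share a name and a cluster number. No other transcript in the table carries that number. The sources do not say whether they are isoforms or separate genes, and reads may be split between them, so their sum was also followed. The sum was 224.7 ± 21.6 FPKM in TZM buds and 241.9 ± 112 FPKM in SZT buds (SD, n = 3 each), a log2 difference of 0.03 (SE 0.36, adjusted p = 1). The mean FPKM was lower in TZM buds although the log2 difference, taken between means of log values, was just above 0, and the libraries overlapped. At full bloom it was 20.1 ± 5.26 FPKM in TZM and 96.4 ± 45.4 FPKM in SZT.

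The proportions of the pair differed in TZM buds. Cluster-73402.0 divided by Cluster-73402.1 was 6.10 ± 0.69 in TZM buds (5.62 to 6.89) and 2.52 ± 0.35 in SZT buds (2.18 to 2.87, SD, n = 3 each). In the other 24 libraries of all groups the ratio lay between 1.61 and 3.90, so none reached the TZM buds. As a share of the sum, Cluster-73402.0 averaged 85.8% in TZM buds and between 63.98% and 77.7% in the other groups. An exact two-sided permutation test of the log2 ratio between TZM and SZT buds gave p = 0.1 (difference 1.28, n = 3 each), the smallest p that 3 against 3 libraries allow, and this group was singled out after its values were seen. Between libraries of a group the pair moved together: deviations from the group means on the log2(FPKM + 1) scale had r = 0.88 over the 27 libraries and 0.71 over the 21 outside SZT. The points share libraries, and reads assigned to one transcript may belong to the other, so r is given as a description.

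**Figure D3:**
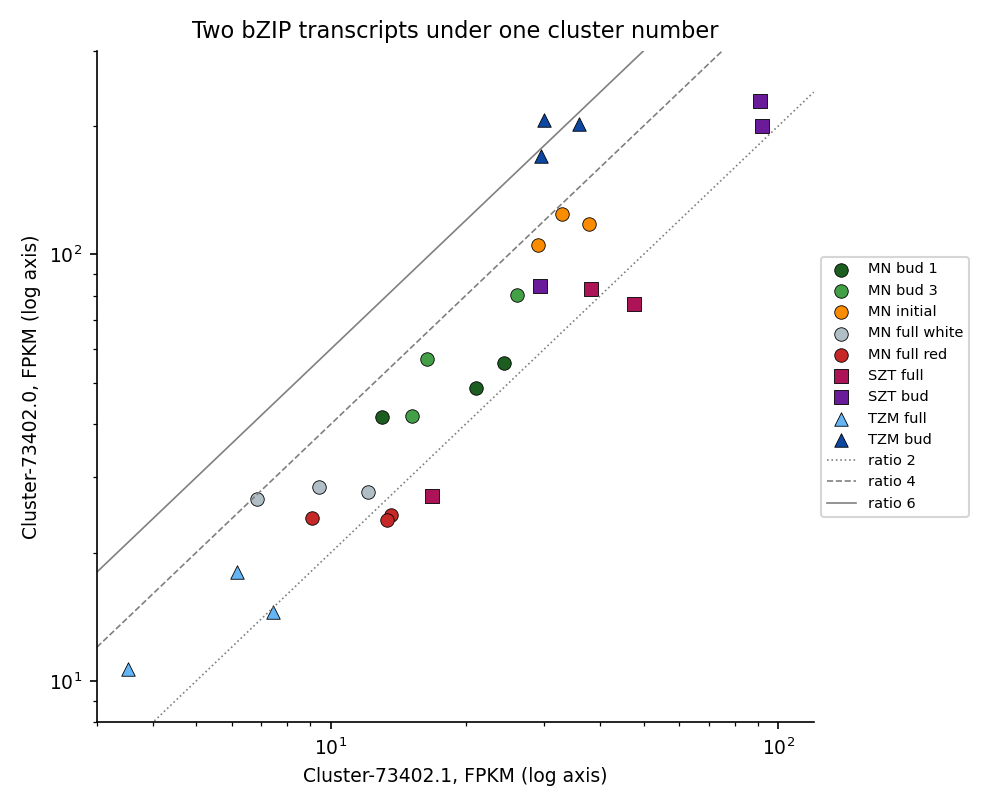
Cluster-73402.0 against Cluster-73402.1 in FPKM on log axes, a point per library coloured by group, with lines where the ratio of the pair is 2, 4 and 6. The 3 TZM bud libraries have ratios of 5.62 to 6.89 and stand apart from the other 24, at 1.61 to 3.90.

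The other two members share their cluster numbers with further transcripts. Number Cluster-89052 covered 6 transcripts, and Cluster-89052.1 made up 0% to 18.4% of their summed FPKM per library, with a median of 6.21%. The most abundant one, Cluster-89052.3, averaged 110 ± 3.59 FPKM at initial flowering of MN and 48.8 ± 5.26 FPKM at bud stage 3 (SD, n = 3 each). The sum over the number differed there by 0.86 (SE 0.67, adjusted p = 0.352), while Cluster-89052.1 fell by 1.29 on the log2 scale. At full bloom against bud, the sum fell along with Cluster-89052.1, by 1.94 in SZT (adjusted p = 0.0201) and by 4.11 in TZM (adjusted p = 4.26e-05, limma).

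Number Cluster-84038 covered 14 transcripts, of which Cluster-84038.13 made up at most 46.2% in a library, with a median of 12.1%. It was the most abundant of them by mean in MN at bud stages 1 and 3 and in SZT buds, where it averaged 17.45, 14.3 and 14.7 FPKM and the next, Cluster-84038.11, averaged 15.02, 13.4 and 13.0 FPKM. In TZM buds it averaged 15.4 FPKM and Cluster-84038.11 21.4 FPKM. In SZT the sum over the number was 62.4 ± 7.31 FPKM at full bloom and 40.1 ± 6.08 FPKM in bud, a rise of 0.63 (SE 0.14, adjusted p = 0.000738), whereas Cluster-84038.13 fell by 2.38. In TZM the sum was 56.6 ± 7.79 FPKM at full bloom and 81.9 ± 11.4 FPKM in bud, a fall of 0.52 (SE 0.14, adjusted p = 0.00478). In MN it was higher at full bloom than at initial flowering, by 0.49 in the white region (adjusted p = 0.00941) and by 0.49 in the red region (adjusted p = 0.00981). In SZT and MN the bud-high pattern of Cluster-84038.13 was therefore not that of the sum over its number. Whether reads moved between these transcripts in the authors' assembly and mapping was not tested.

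**Figure D4:**
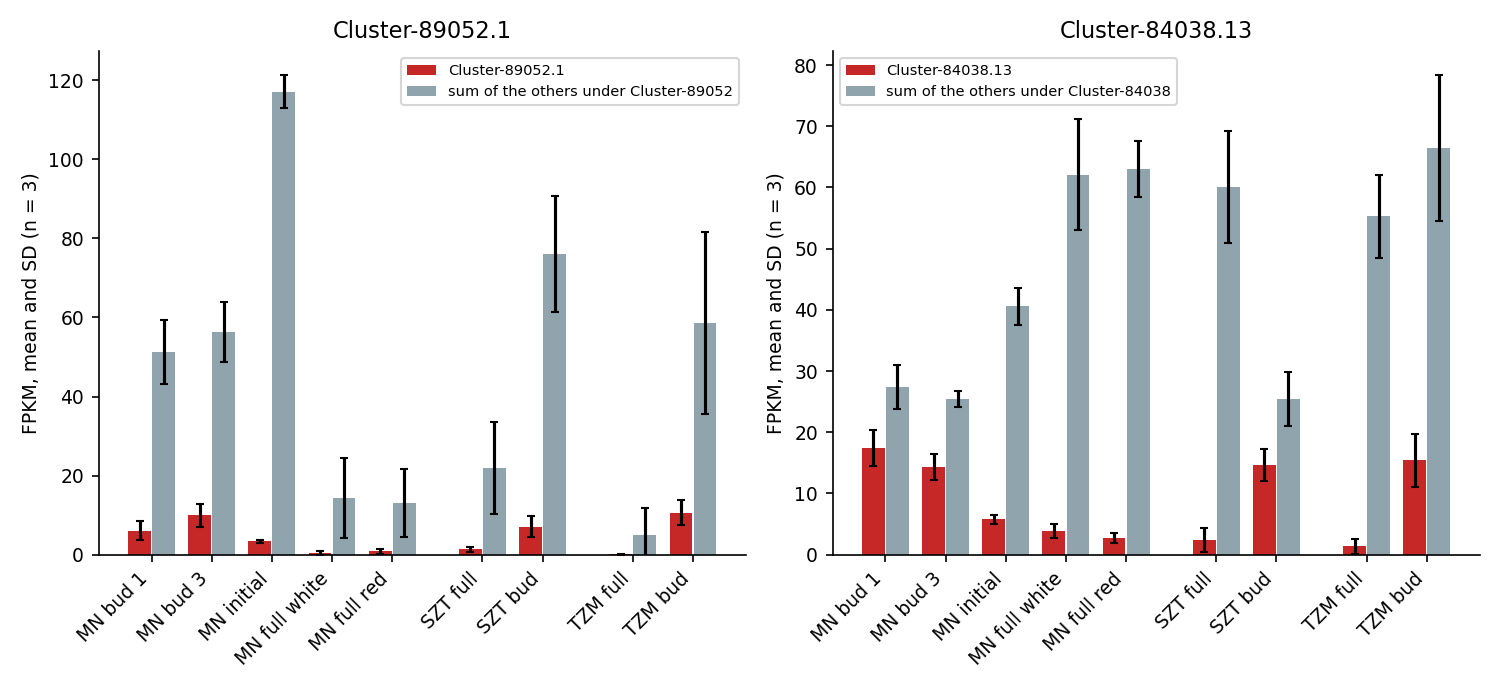
Mean FPKM with SD (n = 3) of Cluster-89052.1 and Cluster-84038.13 and of the other transcripts under the same cluster number, by group. Under Cluster-84038 the others sum to 60.1 FPKM at full bloom and 25.4 FPKM in bud of SZT, opposite in direction to Cluster-84038.13, and error bars that would pass below 0 end there.

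Likeness to the named transcripts of the supplementary list was measured as Pearson's r over the 9 group means of log2(FPKM + 1), leaving out transcripts under the member's own cluster number. Cluster-89052.1 was most like the F3H transcript Cluster-81276.6 (r = 0.99), the ANS transcript Cluster-21086.8 (0.99) and the F3H transcript Cluster-88339.0 (0.98), and 3 tested transcripts had a higher r than the first of these. Cluster-84038.13 was most like the F3H transcripts Cluster-88339.0 (0.98) and Cluster-88339.5 (0.98) and Cluster-103202.38, a C3H zinc finger transcript (0.97), with 20 tested transcripts above the first. Within the pair r was 0.92. Outside its number Cluster-73402.0 had lower values, and its nearest were Cluster-87964.0, a homeodomain leucine zipper (HB-HD-ZIP) transcript (0.88), Cluster-89089.0, an SBP transcript (0.85), and the CHS transcript Cluster-72978.8 (0.83), with 212 tested transcripts above the first. Cluster-73402.1 had the same HB-HD-ZIP transcript nearest outside its number (0.81, 329 above), followed by Cluster-94053.16 (0.78) and Cluster-64909.3 (0.77), both named for positive regulation of posttranscriptional gene silencing.

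Set against the summed enzymes over the 9 group means, Cluster-89052.1 had r = 0.98 with the 6 CHS transcripts and 0.98 with the 6 F3H transcripts, and Cluster-84038.13 had 0.91 and 0.98. For Cluster-73402.0 the values were 0.78 and 0.74, and for Cluster-73402.1 they were 0.71 and 0.61. With summed DFR, ANS and ANR, r was 0.68, 0.81 and -0.93 for Cluster-73402.0 and 0.60, 0.70 and -0.81 for Cluster-73402.1. It was 0.93, 0.99 and -0.89 for Cluster-89052.1 and 0.94, 0.96 and -0.76 for Cluster-84038.13. Summed ANR spread widely within full-bloom groups, as from 3.02 to 68.79 FPKM in the white region of MN. Within groups, over the deviations of the 27 libraries from their group means, r was 0.52 between Cluster-89052.1 and summed CHS, -0.10 between Cluster-89052.1 and summed F3H, and 0.12 between Cluster-84038.13 and summed F3H. Cluster-89052.1 and Cluster-84038.13, with r = 0.94 over the group means, had -0.35 within groups. The group means share the step from bud to bloom, and all transcripts measured in a library share its depth. These values therefore describe the pattern over groups and carry no test.

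The summed enzymes show how the course of the members differed from that of the pathway. Summed CHS averaged 5276 ± 371 FPKM in MN at bud stage 1, 8331 ± 660 FPKM at bud stage 3 and 1335 ± 220 FPKM at initial flowering, then 24.2 ± 6.06 FPKM in the white and 152 ± 41.7 FPKM in the red region (SD, n = 3 each). Cluster-89052.1 likewise had its highest MN mean at bud stage 3 and its lowest means at full bloom. Bud stage 3 against bud stage 1 was called in limma neither for Cluster-89052.1 (0.65, adjusted p = 0.332) nor for summed CHS (0.66, adjusted p = 0.241). Cluster-84038.13 had its highest MN mean at bud stage 1. Within MN, Cluster-73402.0 and Cluster-73402.1 were instead highest at initial flowering, where CHS had already fallen. In SZT and TZM, where initial flowering was not sampled, both had higher means in bud than at full bloom, as summed CHS had.

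**Figure D5:**
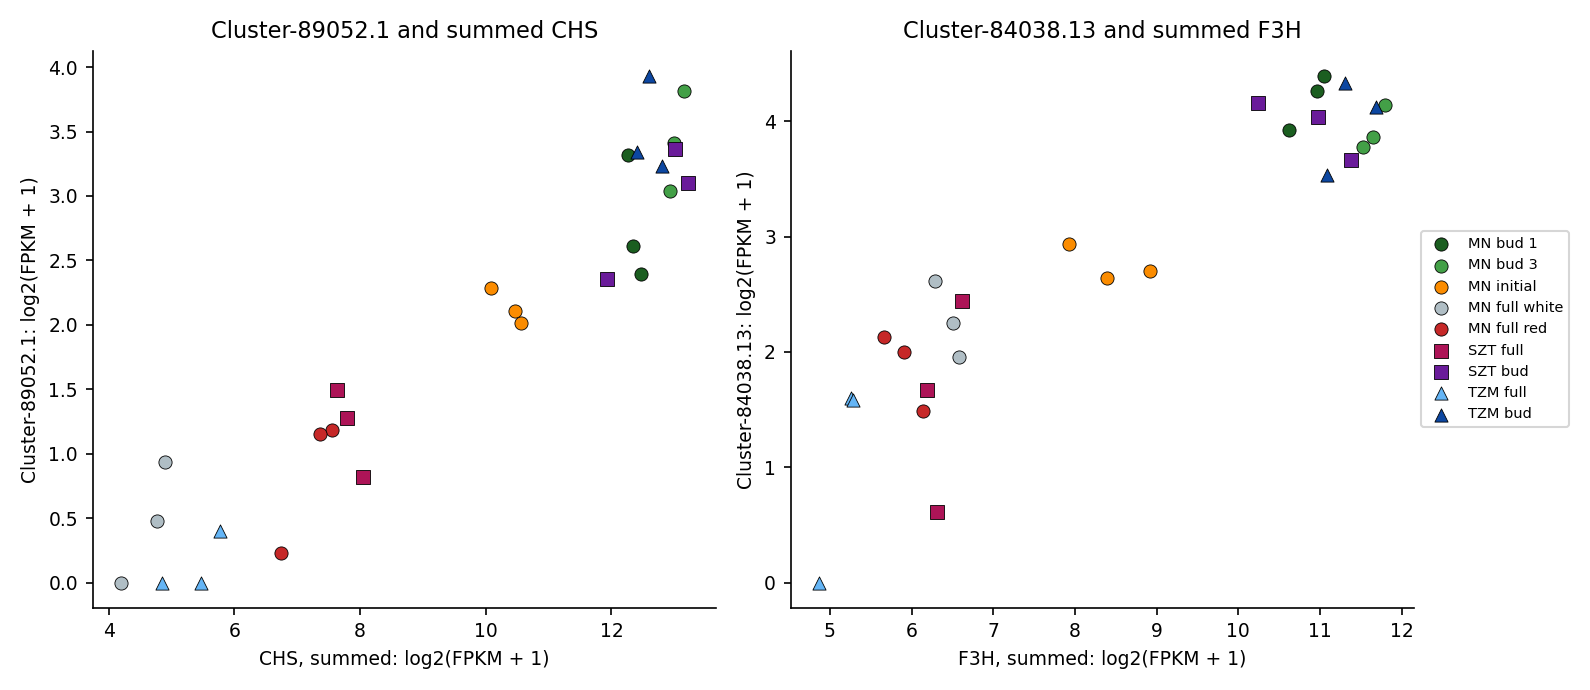
Cluster-89052.1 against summed CHS and Cluster-84038.13 against summed F3H, all on the log2(FPKM + 1) scale, a point per library coloured by group. Bud libraries lie at the upper right, initial flowering of MN between, and full bloom at the lower left, and over the 9 group means r is 0.98 in each panel.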

How the data were processed

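Per the labels and the study's methods, the authors enriched petal mRNA, sequenced it on an Illumina instrument, trimmed with Trimmomatic 0.36 and built a de novo transcript assembly with Trinity, to which reads were mapped. How reads were mapped and quantified, and whether by strand, is not given in the sources read. The deposited FPKM values were computed by the authors per transcript and library, rounded to 2 decimals. A de novo assembly can split a gene over several transcripts, which moves FPKM between them. Among low values, 2.04% to 12.6% per library fitted the commonest ratio to a common library, so read counts could not be recovered. The depth of each library is unknown, and no count model was run.

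Each library was grouped by cultivar, stage and region in its label, with 0 columns lacking a library. limma 3.58.1 (R 4.3.3) was fitted with a trend to log2(FPKM + 1) of all 27 libraries, with a mean per group and 18 residual degrees of freedom, on the 55099 transcripts with a mean of at least 5 FPKM in at least 1 group and on added sums of the pair, the cluster numbers and the enzymes. The script was tested on simulated data. Tables, permutation tests and plots used Python 3.11.15 with pandas 2.3.3, numpy 2.4.6, scipy 1.17.1 and matplotlib 3.10.9. The 18 comparisons used adjusted p-values within each comparison.

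The text names the 4 bZIP transcripts, counts and sums under their cluster numbers, the 20 enzyme transcripts as counts and medians, and for each member the 3 other listed transcripts with the highest r over group means. The most abundant other transcripts sharing a number with Cluster-89052.1 and Cluster-84038.13 were named after its values were seen. Members and lists were chosen with earlier results of these data known. Results were recomputed with the replicate number as a block, median-ratio scaling, a pseudocount of 0.01, filters of 10 and none, only the libraries of a comparison, the stricter rule, the sum over a cluster number and each library left out.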

Additional observations from a re-analysis of the deposited data

Results flagged for a closer look

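The stage difference differed between cultivars for part of the bZIP transcripts, by the interaction test in limma of full bloom minus bud in TZM less full bloom minus bud in SZT. The log2 difference of differences was -2.20 for Cluster-73402.0 (adjusted p = 0.00152), with full bloom minus bud at -3.68 in TZM and -1.48 in SZT. It was -1.62 for Cluster-89052.1 (adjusted p = 0.0115), with -3.37 in TZM and -1.75 in SZT. For the summed pair under Cluster-73402 it was -2.12 (adjusted p = 0.00242), with -3.45 in TZM and -1.32 in SZT. The median over all tested transcripts was 0.11 for this contrast. SZT bud replicate 3 and SZT full-bloom replicate 1, which were low for the pair, both enter it. Bud replicate 3 was also the lowest SZT bud library for Cluster-89052.1, at 4.11 FPKM against 9.31 and 7.6 FPKM. Each library was left out in turn, but no run left out SZT bud replicate 3 and SZT full-bloom replicate 1 together. Leaving out a single library kept the summed pair between -2.61 and -1.65 and Cluster-89052.1 between -1.835 and -1.328.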

How the results depend on the processing

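Of the 33 calls of bZIP transcripts, 33 were kept with a filter of 10, 32 with the replicate block, 31 with median-ratio scaling, 29 with no filter, 28 with a pseudocount of 0.01 and 24 on the libraries of a comparison alone. Counts of called transcripts are given by comparison. With a pseudocount of 0.01 the count was 1 at initial flowering against bud stage 3 of MN, 2 at full bloom against bud of SZT and 1 for the red region of MN against TZM. With no filter it was 1 at initial flowering against bud stage 3 and 1 for the white region against TZM. On the libraries of a comparison alone it was 2 at full bloom against bud of SZT, 0 for MN against SZT in bud, 0 in its white and 0 in its red region, and 1 for the white region against TZM. At the stricter rule it was 0 at initial flowering against bud stage 3, 1 for the red region against initial flowering, 2 at full bloom against bud of SZT, 0 for MN against SZT in bud and in the white and red regions, 0 for the white region against TZM, 0 for white against red petals and 0 for the interaction of TZM and SZT. With the sum over the cluster number in place of each transcript, the summed pair stood for both of its transcripts and so counted as 2. The count was then 1 in TZM against SZT buds and 0 for the white region against TZM. It was 2 for the white region against SZT, both from the summed pair. For bud stage 3 against TZM buds it was 3, of which 2 came from the summed pair.

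The sum over the cluster number turned the sign of several log2 differences. At initial flowering against bud stage 3 it gave 0.86 for Cluster-89052 and 0.22 for Cluster-84038. For Cluster-84038 it gave 0.49 in the white and 0.49 in the red region against initial flowering, and 0.63 at full bloom against bud of SZT. For the white against the red region it gave 0.035 for Cluster-73402, 0.045 for Cluster-89052 and -0.0022 for Cluster-84038. In TZM against SZT buds it gave 0.026 for Cluster-73402 (Cluster-73402.1 turned) and -0.31 for Cluster-89052, for MN bud stage 3 against SZT buds -0.31 for Cluster-89052, and for bud stage 3 against bud stage 1 0.18 for Cluster-73402. Median-ratio scaling turned uncalled differences, of Cluster-73402.1 at bud stage 3 against bud stage 1 (0.025) and of Cluster-84038.13 in MN bud stage 3 against SZT buds (0.011). The causes were not tested.

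With each library left out in turn, counts ran from 1 to 3 at initial flowering against bud stage 3, 0 to 1 in TZM against SZT buds, 0 to 2 for MN against SZT in bud, 1 to 2 for the white and 0 to 2 for the red region against SZT, 0 to 2 for the white and 0 to 1 for the red region against TZM. Uncalled log2 differences that changed sign ran as follows. Cluster-73402.0 ran from -0.15 to 0.56 in TZM against SZT buds and from -0.25 to 0.70 in the interaction of the MN red region and SZT. Cluster-73402.1 ran from -0.27 to 0.16 at bud stage 3 against bud stage 1 and from -0.066 to 0.90 in that interaction. The summed pair ran from -0.059 to 0.38 at bud stage 3 against bud stage 1, from -0.024 to 0.10 for the white against the red region, from -0.45 to 0.29 in TZM against SZT buds and from -0.22 to 0.74 in that interaction. Cluster-84038.13 ran from -0.13 to 0.27 in TZM against SZT buds, -0.99 to 0.017 in TZM against SZT at full bloom, -0.17 to 0.075 in MN bud stage 3 against SZT buds, -0.30 to 0.10 against TZM buds, -0.18 to 0.73 in the red region against SZT, -0.30 to 0.21 for white against red petals and -0.16 to 0.76 in that interaction. Cluster-89052.1 ran from -0.28 to 0.13 in MN bud stage 3 against TZM buds.

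Replicate numbers are shared between groups in the labels. Deviations of same-numbered libraries correlated at -0.22 to 0.15 over 108 pairs (3 above 0.1), and 6 of the 27 libraries correlated best with their own number. The numbers were not taken to pair samples. A pairing across numbers, as between white and red libraries of MN, was not tested. The replicate block changed 1 call among the members, Cluster-73402.1 at full bloom against bud of SZT (adjusted p = 0.0513 with the block, -0.98 in both fits). The nearest listed transcript stayed the same in 9 of 10 alternatives for Cluster-73402.0, 5 for Cluster-73402.1, 6 for Cluster-89052.1 and 2 for Cluster-84038.13. The depth of each library is unknown, and values under about 1 FPKM, as for Cluster-89052.1 at full bloom, are the least precise.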
